A study of Mus musculus with 6 samples.

Results

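Mouse embryonic fibroblasts whose label gave both copies of Sptbn1 as knocked out were compared with wild type (WT) fibroblasts by RNA sequencing. These were 2 of the 6 libraries of the study, and each of the other 4 carried a further genotype. Of 25793 genes in the tables, the 14017 with at least 1 CPM (counts-per-million of the scaled library) in either of the 2 libraries were compared, all of them through the ratio of their scaled counts. The labels write the homozygote as beta-2SP-/- and the control as wt, after beta-2SP, another name of the protein. The fibroblasts were primary cells of E13.5 embryos from matings of Sptbn1+/- and SMAD3 +/- mice, grown with 10% fetal bovine serum and with no treatment named. The other 4 genotypes were the Sptbn1 heterozygote, the Smad3 heterozygote and homozygote, and the double heterozygote. Which part of Sptbn1 was removed is not in the labels, nor is whether the 2 embryos were littermates or how many embryos gave each library. Each genotype had 1 library, so no value below has a replicate check and no p-value was computed.

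Sptbn1 encodes beta-II spectrin, a long actin-binding protein that pairs with alpha-II spectrin and is held to membrane proteins by ankyrins. The resulting lattice under the plasma membrane supports cell shape and the placing of channels and adhesion molecules. Beta-II spectrin has also been described as an adaptor that helps SMAD3 and SMAD4 reach the nucleus after TGF-beta binds its receptors. In fibroblasts, TGF-beta signalling is known for raising matrix, contractile and protease-inhibitor genes.

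Counts on genes came to 11407587 in the WT library and 6856680 in the homozygote library, so the homozygote limited the precision. Of reads placed uniquely, 42.3% and 40.9% were counted on genes, beside 41.7% and 43.3% in the Sptbn1 and Smad3 heterozygotes and 80.1% and 81.2% in the Smad3 homozygote and double heterozygote. The first 4 libraries are called those of like make-up because of this share only, and the last 2 differed from them in it. The name does not mean that their cells were alike. The 8 fibroblast markers summed to 26335 CPM in WT and 26611 CPM in the homozygote, with none called different. The 5 endothelial, 6 epithelial and 4 skeletal muscle markers each summed to under 15 CPM in both libraries. Y-linked transcripts were present in both, with Ddx3y at 127 and 118 CPM, whereas the Smad3 heterozygote library held them at or under 0.388 CPM and carried Xist at 2747 CPM. That library also differed in some marker sums. Its skeletal muscle markers summed to 47.3 CPM, beside 3.27 in WT, 3.39 in the Sptbn1 heterozygote and 3.59 in the homozygote. Its epithelial markers summed to 22.9 CPM, beside 8.76, 5.74 and 7.62 CPM. Its macrophage markers, at 2214 CPM, were near the 2292 CPM of WT. Smad3 itself stood at 79.5, 106 and 203 CPM in the libraries labelled with a Smad3 mutation and at 53.3 CPM in WT, so these 3 libraries are named by label only.

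The targeted gene was examined first. Sptbn1, which the tables list as Spnb2, lies on chromosome 11 and had 16043 counts in WT and 5160 in the homozygote. Its level was 1419 CPM in WT, 1071 in the Sptbn1 heterozygote, 771 in the Sptbn1 homozygote, 1556 in the Smad3 heterozygote, 1022 in the Smad3 homozygote and 695 in the doubly heterozygous cells. The homozygote level was 54.3% of WT (95% interval 52.6 to 56.1), below every other library except the double heterozygote. Intervals here and below are exact Clopper-Pearson intervals of the count ratio. They cover counting error only, because each genotype had 1 library and no spread between embryos enters them. The reads carry no molecular identifiers and need not be separate molecules, so the intervals can be too narrow even for counting error. The 5160 reads were assigned to Sptbn1 in the library labelled homozygous, and whole-gene counts cannot show whether an exon is missing from them. Smad3 stood at 57.2 CPM in the homozygote, 107% of WT (94.1 to 122). Along chromosome 11, none of the 6 compared genes on either side of Sptbn1 was called different. The next gene on one side, the acylphosphatase gene Acyp2, went from 7.43 to 3.74 CPM, a ratio of 0.503 (0.308 to 0.794). The neighbour on the other side, Eml6, went from 3.54 to 5.98 CPM, a ratio of 1.69 (1.06 to 2.69). Further out on the side of Acyp2, Gpr75 had 29 and 5 counts, a ratio of 0.291 (0.088 to 0.761). On the side of Eml6, intervals also excluded 1-fold for Rtn4, at 0.902 (0.872 to 0.933), and Prdxdd1, at 1.42 (1.09 to 1.83).

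Most genes were close in level between the 2 libraries, and 88.5% had an estimated ratio within 1.5-fold. The median log2 ratio of homozygote to WT was -0.00, but the scaling of library sizes itself centres most ratios near 0. A gene was called higher or lower in the homozygote when its whole interval lay beyond 1.5-fold. By this rule 95 genes were higher (0.678% of those compared) and 61 were lower (0.435%), together 156 or 1.11%. The median fold was 3.84 among the higher genes and 2.62 among the lower ones. Of the 95 higher genes, 49 were under 5 CPM in both libraries, and of the 61 lower genes, 18. Predicted gene models made up 21 of the higher and 9 of the lower genes. Just inside the threshold lay Adam11 (3.86-fold higher, nearer bound 1.503) and Syt13 (1.80-fold lower, nearer bound 1.52), and just outside lay C3 (ratio 1.68, nearer bound 1.497) and Eln, the elastin gene, at 204 and 125 CPM (1.499). When each interval was widened by the dispersion among the 4 libraries of like make-up, taken as if they were replicates, 38 genes remained higher (0.271%) and 12 lower (0.0856%). The 5 higher and 5 lower genes with 0 counts in 1 library were given no widened interval and are not among them. Of the 36 called genes on the lists described below, 7 remained higher (Col2a1, Col9a1, Trim39, Rspo1, Plekhg5, Fst and Rn7sk) and 4 lower (Spp1, Nt5e, Hoxd13 and Xist). Sptbn1 was not among those that remained, with a widened interval of 1.09 to 3.10-fold below WT.

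**Figure D1:**
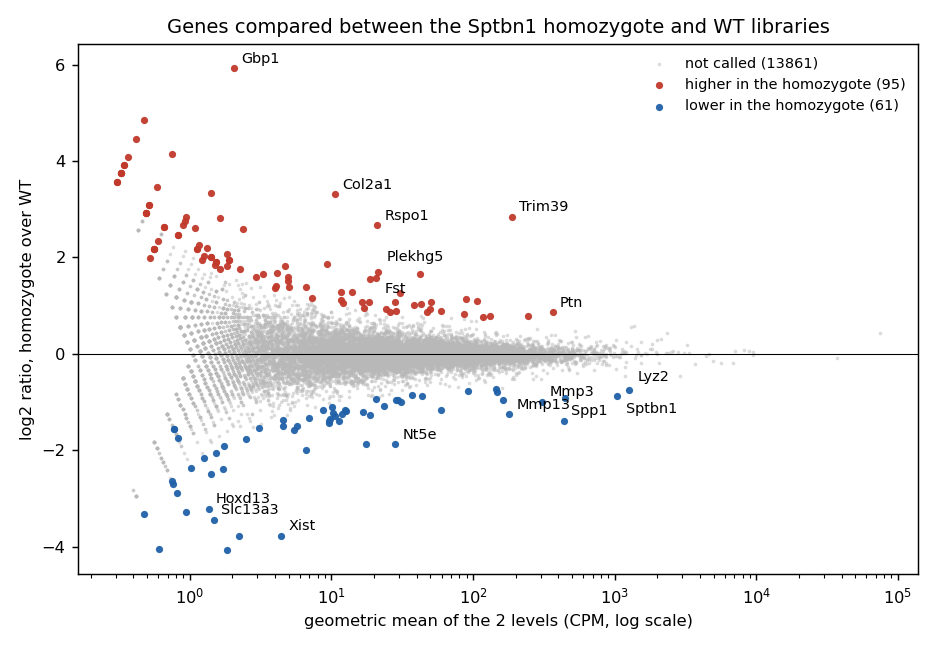
Log2 ratio of the homozygote to the WT library (vertical axis) against the geometric mean of the 2 levels in CPM (horizontal log axis), 1 point per gene compared, with a count of 0 placed at 3 counts. The 95 higher genes are red, the 61 lower genes are blue and the 13861 genes that were not called are grey; Trim39 and Ptn lie among the more abundant higher genes, and Lyz2, Sptbn1 and Spp1 among the more abundant lower ones.

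The membrane skeleton and the TGF-beta pathway held few differences beyond Sptbn1. Of 20 compared spectrins and spectrin partners, Sptbn1 was lower and the other 19 were not called, with a list median log2 ratio of -0.00 beside -0.00 for all genes. Alpha-II spectrin, the partner chain of beta-II spectrin listed as Spna2, stood at 455 CPM in WT and 415 CPM in the homozygote, a ratio of 0.912 (0.870 to 0.955). The ankyrin genes Ank2 and Ank3 had ratios of 1.13 (0.987 to 1.30) and 1.00 (0.904 to 1.11), and the adducin gene Add1, which caps the actin filaments of the lattice, 0.991 (0.932 to 1.05). Outside the list, Nfasc, encoding the ankyrin-binding adhesion molecule neurofascin, was 2.08-fold higher (1.57 to 2.76), at 8.40 and 17.5 CPM. With a widened interval (1.15 to 3.75) Nfasc was not called.

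None of the 32 TGF-beta ligands, receptors and SMAD genes was called (median log2 ratio -0.05). The ligand gene Tgfb1 had a ratio of 0.992 (0.860 to 1.14), and the receptor genes Tgfbr1 and Tgfbr2 had ratios of 0.903 (0.828 to 0.985) and 0.931 (0.884 to 0.979). Among the signal transducers, Smad2 had a ratio of 0.969 (0.867 to 1.08) and Smad4 one of 1.02 (0.920 to 1.12), and Smad7, the inhibitory SMAD that TGF-beta induces, had one of 1.15 (0.986 to 1.33). All of these intervals lay within 1.5-fold of WT. None of 44 TGF-beta and SMAD3 target genes was called either (median log2 ratio -0.01). Ctgf, a matricellular growth factor gene, had a ratio of 1.01 (0.978 to 1.05), and the fibronectin gene Fn1 one of 1.06 (1.05 to 1.07). The target with the lowest log2 ratio was Angptl4, a secreted lipase inhibitor, at 15.3 and 8.37 CPM and a log2 ratio of -0.87, and the one with the highest was the calponin gene Cnn1, at 55.5 and 82.3 CPM and 0.57.

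Among activin and BMP genes, 1 antagonist was higher and another lower. Fst, encoding follistatin, which binds and blocks activins, stood at 11.9 CPM in WT, 9.42 in the Sptbn1 heterozygote, 35.4 in the homozygote, 17.7 in the Smad3 heterozygote, 152 in the Smad3 homozygote and 31.9 in the doubly heterozygous cells. It was 2.97-fold higher in the homozygote than in WT (2.39 to 3.69), and the homozygote was the highest of the 4 libraries of like make-up. It was the 1 gene called among 10 activins and follistatins, and Inhba, the activin A subunit gene, had a ratio of 0.865 (0.826 to 0.905). Grem1, encoding the BMP antagonist gremlin 1, stood at 195, 106, 113, 729, 184 and 177 CPM in the same order of libraries. It was 1.73-fold lower than in WT (1.59 to 1.88), close to its level in the Sptbn1 heterozygote, and was not called with a widened interval (1.02 to 2.92). Of 26 BMP ligands, antagonists and targets, Dlx5 was the 1 higher gene and Grem1 the 1 lower gene.

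Genes of cartilage and bone were called in both directions. Of 30 compared, 3 were higher and 2 lower, beside 0.678% and 0.435% of all genes, with a median log2 ratio of 0.18. Col2a1, which encodes the chain of type II collagen, the fibril of cartilage, stood at 3.36 CPM in WT, 10.6 in the Sptbn1 heterozygote, 33.5 in the homozygote, 5.43 in the Smad3 heterozygote, 151 in the Smad3 homozygote and 9.55 in the doubly heterozygous cells. WT was the lowest of the 6 and the homozygote the second highest, a difference of 9.96-fold (7.04 to 14.4) from 38 and 224 counts. Col9a1, a chain of the type IX collagen that coats those fibrils, had 1 count in WT and 9 in the homozygote, 15.2-fold higher (2.11 to 666). Ucma, a cartilage matrix gene that was on no list, had the same 1 and 9 counts. Dlx5, a homeobox gene of bone and face, was 3.57-fold higher (1.54 to 8.95) at 0.796 and 2.84 CPM. Other genes that define cartilage were not called: Acan, the aggrecan gene, had a ratio of 1.14 (0.686 to 1.87), Sox9, its transcription factor, one of 1.29 (1.13 to 1.48), and Matn1 had 0 and 1 counts. The 5 cartilage markers together summed to 50.5 CPM in WT, 83.2 in the Sptbn1 heterozygote, 95.2 in the homozygote, 58.3 in the Smad3 heterozygote, 171 in the Smad3 homozygote and 37.3 in the doubly heterozygous cells. In bulk RNA, a different number of cells of a type and a different amount of RNA per cell cannot be told apart.

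The bone genes Runx2 and Sp7, which drive osteoblast formation, had ratios of 1.04 (0.965 to 1.13) and 1.15 (0.582 to 2.21). Those called lower were the matrix glycoprotein gene Spp1 and the collagenase gene Mmp13, described with the secreted proteins below. Among 31 collagen chain genes, Col2a1 and Col9a1 were the 2 called, and the fibroblast collagen genes Col1a1 and Col3a1 had ratios of 1.02 (1.01 to 1.03) and 0.974 (0.960 to 0.988). None of 11 small leucine-rich proteoglycans was called, with 9 of them above a log2 ratio of 0 and a median of 0.23.

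Transcription factors that pattern the limb, trunk and face had a median log2 ratio of 0.31 over 54 compared genes, with 41 above 0 and 13 below, beside 6886 above and 7131 below over all genes. Called among them were Tbx20 and Dlx5, both higher, beside 0.678% higher over all genes. Tbx20, a T-box factor of the heart and mesenchyme, went from 1.86 to 5.83 CPM (3.14-fold, 1.80 to 5.61). At higher levels but not called, the forkhead gene Foxp2 stood at 14 and 22.6 CPM (ratio 1.61, 1.28 to 2.03), and Irx1 at 49.9 and 68.0 CPM (1.36, 1.20 to 1.54). Of 30 Hox genes, 1 was called. Hoxd13, which patterns the digits and the hindmost trunk, stood at 4.16 CPM in WT, 0.883 in the Sptbn1 heterozygote, 0.448 in the homozygote, 0.291 in the Smad3 heterozygote, 14.9 in the Smad3 homozygote and 42.3 in the doubly heterozygous cells. From 47 and 3 counts it was 9.28-fold lower (2.99 to 46.6), and all 3 other libraries of like make-up were also below WT.

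**Figure D2:**
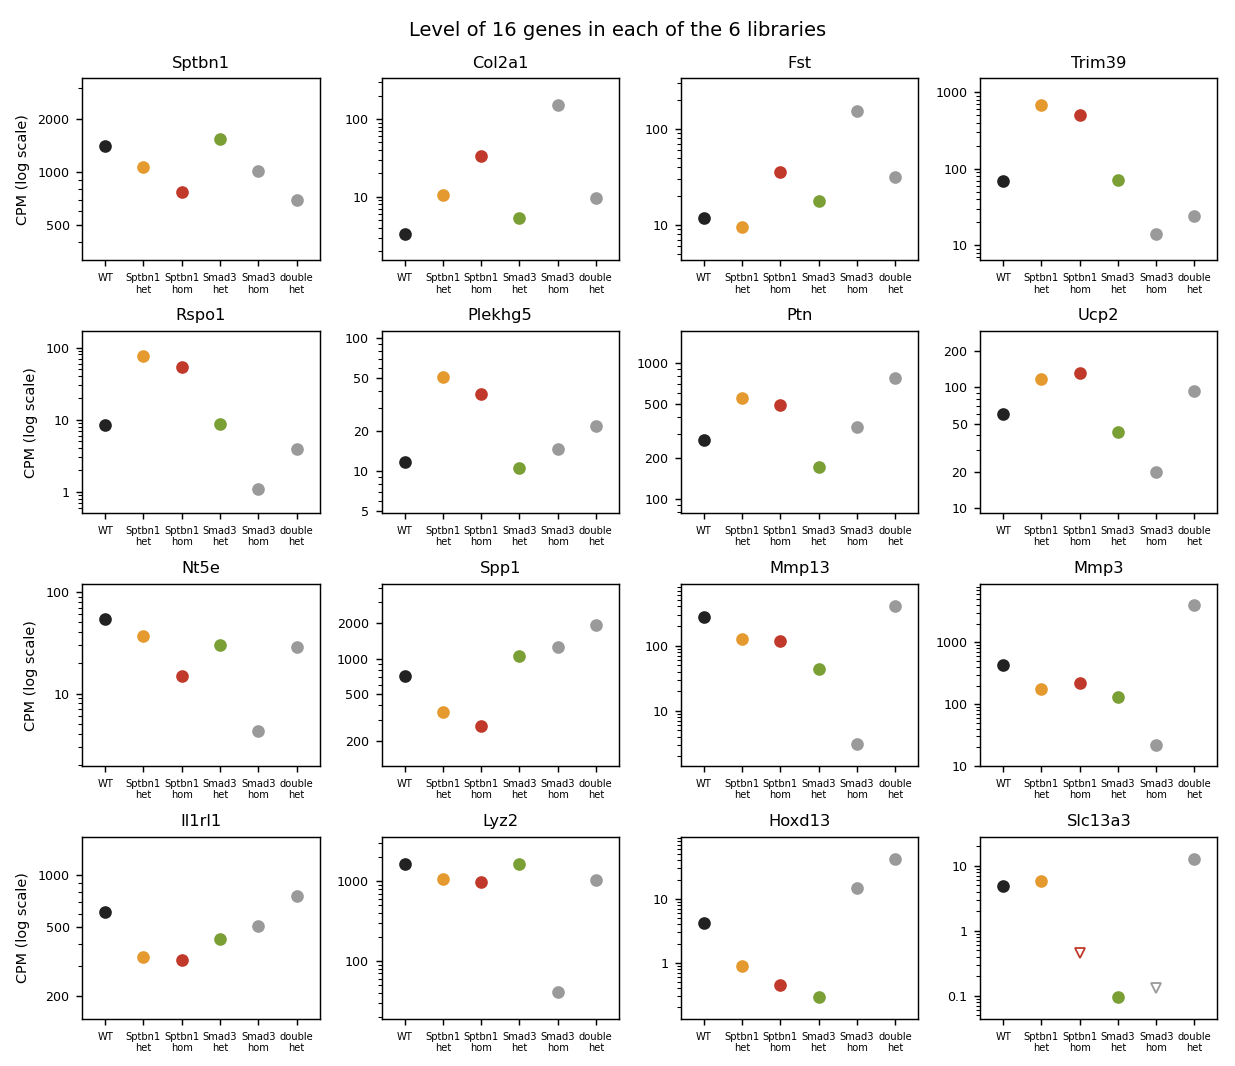
Level of 16 genes in each library, in CPM on a log axis, 1 point per library with the homozygote in red and WT in black; open triangles mark 0 counts and are drawn at 3 counts. Trim39, Rspo1 and Plekhg5 are highest in the Sptbn1 heterozygote and homozygote. The double heterozygote is below WT for Trim39 and Rspo1 and above it for Plekhg5. Fst and Nt5e set the homozygote apart from the other 3 libraries of like make-up, and for Hoxd13, Mmp3 and Mmp13 WT is the highest of those 4.

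Among the higher genes with the largest lower bounds were a ubiquitin ligase, a Wnt amplifier and an exchange factor. Trim39, a RING-finger ubiquitin ligase gene on chromosome 17, stood at 70.0 CPM in WT, 688 in the Sptbn1 heterozygote, 502 in the homozygote, 71.5 in the Smad3 heterozygote, 14 in the Smad3 homozygote and 24.4 in the doubly heterozygous cells. Rspo1, on chromosome 4, encodes R-spondin 1, a secreted protein that sustains Wnt receptors at the cell surface, and it stood at 8.32, 76.3, 52.9, 8.72, 1.11 and 3.98 CPM in the same order. Plekhg5, an exchange factor that activates RhoA, stood at 11.8, 51.4, 38.1, 10.7, 14.7 and 22 CPM. For all 3 the Sptbn1 heterozygote and homozygote were the highest and second highest of the 6 libraries. The double heterozygote, also labelled with an Sptbn1 mutation, lay below WT for Trim39 and Rspo1 and above it for Plekhg5. The fold of the homozygote over WT was 7.18 for Trim39 (6.64 to 7.77), 6.36 for Rspo1 (5.05 to 8.07) and 3.24 for Plekhg5 (2.62 to 4.02), and each stayed called with widened intervals. The Sptbn1 heterozygote and homozygote are set against the same WT library, so their values are not independent of each other. Rspo1 was the 1 gene called among 45 Wnt ligands, receptors and antagonists. Its receptor genes Lgr4 and Lgr5 had ratios of 0.880 (0.782 to 0.988) and 0.698 (0.649 to 0.750), and Axin2, a common Wnt target, one of 1.05 (0.853 to 1.28). Plekhg5 was the 1 gene called among 48 actin regulators and exchange factors, and Trim39 the 1 among 20 antigen presentation genes. Trim39 is a ubiquitin ligase and does not itself present antigen.

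Growth factor and metabolic genes of higher abundance differed by smaller folds. Ptn, encoding the heparin-binding growth factor pleiotrophin, stood at 271, 555, 494, 174, 336 and 774 CPM in the order used above and was 1.83-fold higher than in WT (1.74 to 1.92). It was the 1 gene called among 53 growth factor genes. Ucp2, a mitochondrial carrier, stood at 60.2, 118, 132, 42.3, 19.9 and 92.3 CPM and was 2.19-fold higher (1.98 to 2.42), the homozygote being the highest of the 6 libraries. The calcium-binding protein gene S100a11 was 2.14-fold higher (1.95 to 2.35), and Bod1, which acts in chromosome attachment, 2.39-fold higher (2.01 to 2.85). Ddit4, a stress-induced inhibitor of mTORC1, was the 1 gene called among 40 endoplasmic reticulum stress and ATF4 genes, at 43.7 and 81.0 CPM (1.85-fold, 1.64 to 2.10). Plagl1, a zinc-finger gene, was the 1 gene called among 38 imprinted genes, at 90.1 and 153 CPM (1.70-fold, 1.56 to 1.86). H19, a maternally expressed RNA of the same class, stood at 1120 and 1660 CPM with a ratio of 1.48 (1.44 to 1.52) and was not called. Further higher genes included Iqgap2 (2.03-fold), a scaffold protein of the cytoskeleton, Anxa8 (1.91-fold), an annexin, Cd276 (1.73-fold), an immune checkpoint ligand, Npm1 (1.76-fold), a nucleolar chaperone, and Aqp4 (1.84-fold), a water channel. Dsg2, the desmosomal cadherin gene, was 4.01-fold higher (1.68 to 10.6) at 0.708 and 2.84 CPM, and Cdh13, a cadherin held by a lipid anchor, was 2.30-fold lower (1.78 to 3.02) at 25.5 and 11.1 CPM; these were the 2 called among 37 cadherin and junction genes. None of these genes remained called with widened intervals.

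Secreted metalloproteinases were among the lower genes. Over all genes compared, 0.435% were lower, 0.678% were higher and 7131 of 14017 lay below a log2 ratio of 0. Of 34 metalloproteinase, protease and inhibitor genes compared, 3 were lower, 0 were higher and 23 lay below 0, with a median log2 ratio of -0.13. The 3 were Mmp3 and Mmp10, encoding the stromelysins that cut proteoglycans and other matrix proteins, and Mmp13, encoding a collagenase, all on chromosome 9, where Mmp3 and Mmp10 were next neighbours among the genes compared. Because these 3 differed together, the 250 bases before each transcription start are shown as RefSeq gives them for GRCm38.p6, on the + strand. They lie at chr9:7445572-7445821 for Mmp3, chr9:7502092-7502341 for Mmp10 and chr9:7272264-7272513 for Mmp13. Capitals mark matches to the AP-1 motif TGANTCA, the binding site of FOS and JUN proteins, searched on both strands.
Mmp3: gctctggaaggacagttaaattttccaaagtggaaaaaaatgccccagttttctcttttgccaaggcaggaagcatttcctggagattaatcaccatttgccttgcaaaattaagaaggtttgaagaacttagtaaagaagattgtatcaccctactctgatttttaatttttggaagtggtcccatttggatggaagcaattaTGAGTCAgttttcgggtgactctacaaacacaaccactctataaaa
Mmp10: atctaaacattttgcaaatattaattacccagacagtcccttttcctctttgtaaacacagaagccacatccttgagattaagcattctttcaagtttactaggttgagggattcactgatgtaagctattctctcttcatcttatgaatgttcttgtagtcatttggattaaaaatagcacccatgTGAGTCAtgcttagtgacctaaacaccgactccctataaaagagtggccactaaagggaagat
Mmp13: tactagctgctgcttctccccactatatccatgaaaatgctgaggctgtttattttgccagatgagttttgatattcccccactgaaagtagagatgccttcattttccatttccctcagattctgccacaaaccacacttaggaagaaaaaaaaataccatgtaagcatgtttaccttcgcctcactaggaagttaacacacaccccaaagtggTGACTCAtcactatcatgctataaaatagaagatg

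Each of the 3 sequences held 1 match, beginning 46 bases before the start in Mmp3, 63 in Mmp10 and 35 in Mmp13. The matched letters were TGAGTCA in Mmp3 and Mmp10 and TGACTCA in Mmp13, which are the same site read on opposite strands. Over windows of 250 bases before and 50 after the start, 7.81% of 32851 mouse promoters of 27025 genes held the motif. Of the list's members found in the promoter table, 3 of 3 called lower and 3 of 19 not called held it, Mmp12 being 1 of the latter. A member counted if any of its listed starts held the motif, whereas the 7.81% is a share of single promoters. None of the 25 immediate-early and AP-1 factor genes compared was called (median log2 ratio 0.05). Of the other motifs searched, the cyclic AMP response element TGACGTCA (1.79% of promoters) was in none of the 3 windows, and the interferon response element, 2 copies of GAAA with 2 bases of any kind between them (3.44%), was in that of Mmp13 only. Neither of the 2 start sites listed for Spp1 had an AP-1 match, and the first had an interferon response element beginning 157 bases before it. A match describes the letters only and shows no binding. The 3 promoters were shown because their genes were called. The counts of 3 of 3 and 3 of 19 are therefore a description only, and a part of AP-1 in these values was not tested.

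Mmp3 stood at 436 CPM in WT, 176 in the Sptbn1 heterozygote, 219 in the homozygote, 130 in the Smad3 heterozygote, 21.9 in the Smad3 homozygote and 4012 in the doubly heterozygous cells. It was 2.0-fold lower in the homozygote than in WT (1.88 to 2.12). Mmp13 stood at 278, 126, 117, 44.0, 3.11 and 401 CPM and was 2.37-fold lower (2.19 to 2.57). Mmp10 stood at 15.7, 4.42, 6.13, 17.1, 1.11 and 8.95 CPM and was 2.56-fold lower (1.81 to 3.68). WT was the highest of the 4 libraries of like make-up for Mmp3 and Mmp13, and for Mmp3 the homozygote lay between the heterozygotes and WT; for Mmp10 the Smad3 heterozygote was above WT. None of the 3 remained called with widened intervals. Among proteases not called, the macrophage elastase gene Mmp12 had a ratio below 1 (log2 -0.66; 45.1 and 28.5 CPM), while Mmp14, the membrane-bound activator of other metalloproteinases, stood at 684 and 736 CPM. Of the inhibitors, Timp1 stood at 557 and 499 CPM and Timp3 at 2016 and 2702 CPM (ratio 1.34, 1.31 to 1.37).

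Spp1, encoding osteopontin, an integrin-binding glycoprotein of bone and inflamed tissue, stood at 707 CPM in WT, 353 in the Sptbn1 heterozygote, 270 in the homozygote, 1056 in the Smad3 heterozygote, 1256 in the Smad3 homozygote and 1944 in the doubly heterozygous cells. The homozygote was the lowest of the 6, 2.62-fold below WT (2.49 to 2.76), and the call held with a widened interval of 1.56 to 4.42. It was the 1 gene called among 51 matrix proteins other than collagens. Nt5e encodes CD73, the ectoenzyme that turns AMP into adenosine, and is also used as a marker of mesenchymal cells. It stood at 54.1, 36.7, 14.8, 30.2, 4.26 and 28.6 CPM and was 3.66-fold lower (2.96 to 4.57), with the homozygote below all 3 other libraries of like make-up. It was the 1 gene called among 21 ectoenzymes and purine receptors and also the 1 among 29 fibroblast subtype markers. Il1rl1, encoding ST2, the receptor for interleukin-33, stood at 616, 339, 325, 426, 509 and 756 CPM and was 1.90-fold lower (1.81 to 1.99). It was the 1 gene called among 36 interleukin genes and other inflammatory factors. The homozygote was the lowest library but close to the Sptbn1 heterozygote, at a ratio of 0.959 to it (0.904 to 1.02). Penk, the enkephalin precursor gene, stood at 28.9, 8.69, 12, 2.81, 9.42 and 97.3 CPM and was 2.42-fold lower (1.89 to 3.13), the 1 gene called among 48 neuropeptide and axon guidance genes. Gsta4, a glutathione transferase that clears lipid peroxidation products, stood at 16.5, 21.1, 6.72, 12, 34.0 and 8.09 CPM and was 2.46-fold lower (1.77 to 3.49), the 1 gene called among 40 NRF2, glutathione and metallothionein genes. Other lower genes were Prdm1 (2.12-fold), a transcriptional repressor, Ramp3 (2.99-fold), which modifies calcitonin-family receptors, Tfpi2 (2.81-fold), a serine protease inhibitor of the matrix, Prkar2b (2.0-fold), a regulatory subunit of protein kinase A, Cnr1 (2.14-fold), a cannabinoid receptor, and Cdo1 (1.66-fold), which breaks down cysteine. Besides Spp1, Nt5e remained called with a widened interval, whereas Il1rl1, Penk, Gsta4 and these other lower genes did not.

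**Figure D3:**
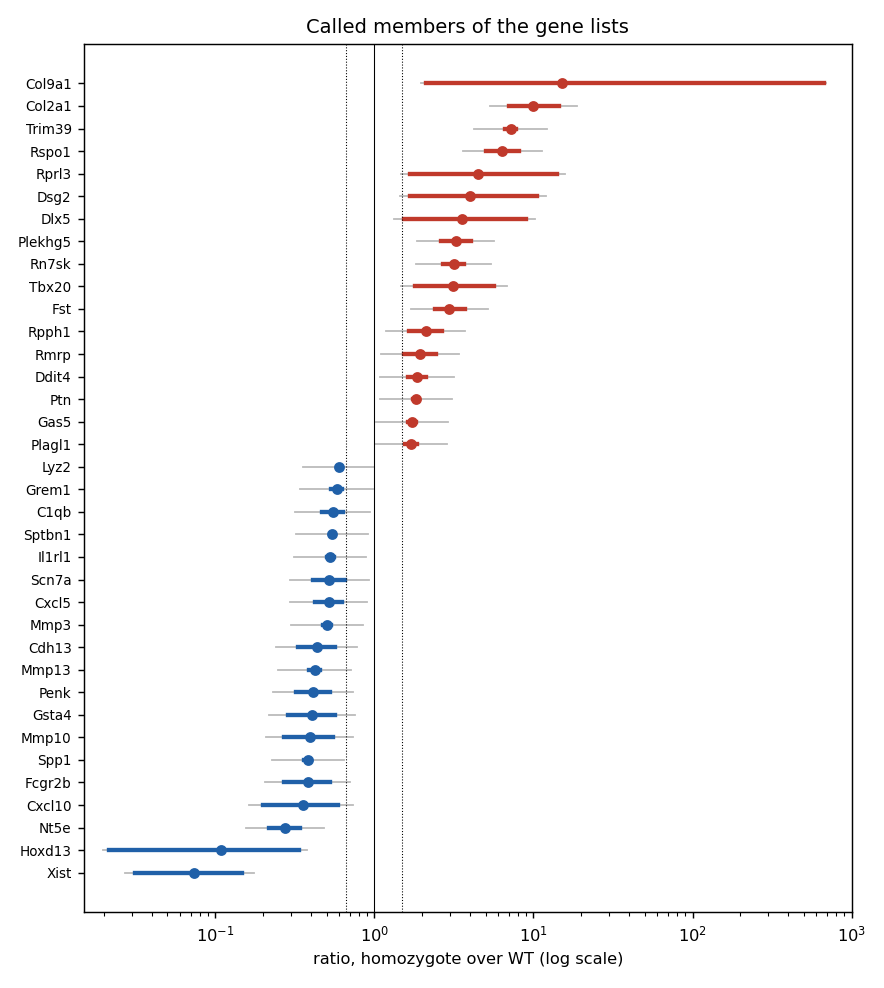
Ratio of the homozygote to WT (log axis) for every called member of the gene lists, with the exact 95% counting interval in colour and the widened interval in grey; red genes are higher, blue genes are lower, and dotted lines mark 1.5-fold. Among members with widened intervals clear of the dotted lines are Col2a1, Trim39 and Rspo1 on the higher side and Spp1, Nt5e, Hoxd13 and Xist on the lower side.

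Macrophage and leukocyte markers lay mostly below WT. Of 27 compared, 3 were lower, 0 higher and 24 below a log2 ratio of 0, with a median of -0.48. The shares over all genes were 0.435% lower, 0.678% higher and 7131 of 14017 below 0. Lyz2, the lysozyme of macrophages, stood at 1631 CPM in WT, 1073 in the Sptbn1 heterozygote, 971 in the homozygote, 1621 in the Smad3 heterozygote, 41.2 in the Smad3 homozygote and 1025 in the doubly heterozygous cells, and was 1.68-fold lower (1.63 to 1.73). C1qb, a chain of complement C1q, was 1.83-fold lower (1.57 to 2.14), and Fcgr2b, the inhibitory Fc receptor, 2.63-fold lower (1.91 to 3.69). Defining markers with other ratios were Ptprc, the CD45 gene, at 1.08 (0.908 to 1.28), the F4/80 gene Emr1 at 0.954 (0.870 to 1.04) and Csf1r, the receptor for macrophage growth factor, at 0.798 (0.698 to 0.910). None of the 12 defining markers was at 0 in either library. The whole list summed to 3111 CPM in WT, 1994 in the Sptbn1 heterozygote, 2149 in the homozygote, 2983 in the Smad3 heterozygote, 83.5 in the Smad3 homozygote and 2221 in the doubly heterozygous cells. None of the 3 remained called with widened intervals.

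Chemokine genes had a median log2 ratio of -0.37 over 25 compared, with 19 below 0, beside 7131 of 14017 over all genes. Called lower were 2 of the 25, beside 0.435% of all genes. The lower ones were Cxcl10, which interferon induces and which draws T cells, at 7.61 and 2.69 CPM (2.83-fold, 1.69 to 5.0), and Cxcl5, which draws neutrophils, at 41.2 and 21.2 CPM (1.94-fold, 1.61 to 2.36), and neither remained called with widened intervals. Ccl2, which draws monocytes, stood at 324 and 236 CPM with a ratio of 0.730 (0.688 to 0.775), and Cxcl12, which fibroblasts make themselves, at 84.1 and 108 CPM with one of 1.28 (1.16 to 1.42). Neither was called. Of 52 interferon-stimulated genes, 0 were called in either direction, with 38 below 0 and a median of -0.16. Irf7, a transcription factor of the interferon response, had a ratio of 0.758 (0.695 to 0.827). The lysozyme and complement genes above were lower in the same library as these values. The 12 defining macrophage markers summed to 2292 CPM in WT and 1512 CPM in the homozygote. Lyz2 alone, at 1631 and 971 CPM, made up most of both sums. The ratios of the 12 ran from 0.547 (C1qb) to 1.08 (Ptprc). A part of macrophages in the chemokine and metalloproteinase values was not tested.

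Markers of other cell types held few calls. None of 15 endothelial, 5 epithelial, 17 mesothelial and gonadal or 9 muscle genes was called. The mesothelial and gonadal list had the largest positive median of these, 0.37, with its 5 defining markers at 32.3 CPM in WT, 13.3 in the Sptbn1 heterozygote and 38.7 in the homozygote. Of 17 neural crest, glial and neuronal markers, the sodium channel gene Scn7a was lower (1.92-fold, 1.53 to 2.43), with a list median of -0.18. The glial gene Sox10 had a ratio of 0.727 (0.566 to 0.928), and the 5 neural crest markers summed to 44.4 CPM in WT and 32.0 CPM in the homozygote. Xist, the RNA that silences an X chromosome, was 13.6-fold lower (6.77 to 32.0) at 16.3 and 1.20 CPM. It stood at 2.65 CPM in the Sptbn1 heterozygote, 0.311 in the Smad3 homozygote and 0.0637 in the doubly heterozygous cells. WT was thus the highest of the libraries with Y-linked transcripts, and far below the 2747 CPM of the Smad3 heterozygote. The Y-linked genes Kdm5d and Uty had ratios of 1.06 (0.931 to 1.21) and 0.893 (0.775 to 1.03).

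The contractile and cell-cycle lists held no called gene. Of 24 contractile genes of smooth muscle, 0 were called and 20 lay above 0, with a median log2 ratio of 0.22. Over all genes, 6886 of 14017 lay above 0. Acta2, the smooth muscle actin gene, had a ratio of 1.22 (1.19 to 1.25), Tpm1, a tropomyosin gene, one of 1.23 (1.21 to 1.26), and Actg2, another muscle actin gene, one of 1.59 (1.45 to 1.75), short of the threshold. Of 41 mitosis genes, 0 were called and 34 lay above 0, with a median of 0.12, and the proliferation marker gene Mki67 had a ratio of 1.20 (1.16 to 1.25). Of 40 DNA replication genes, 0 were called and the median was 0.02. The other lists without a call covered integrins, the Hippo pathway, the IGF axis, Notch and Hedgehog genes, p53 targets, glycolysis, lipid synthesis and adipocyte genes, and their medians ran from -0.12 (adipocyte genes) to 0.06 (p53 targets). In all, 36 of the 156 called genes belonged to a list, and 120 to none.

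**Figure D4:**
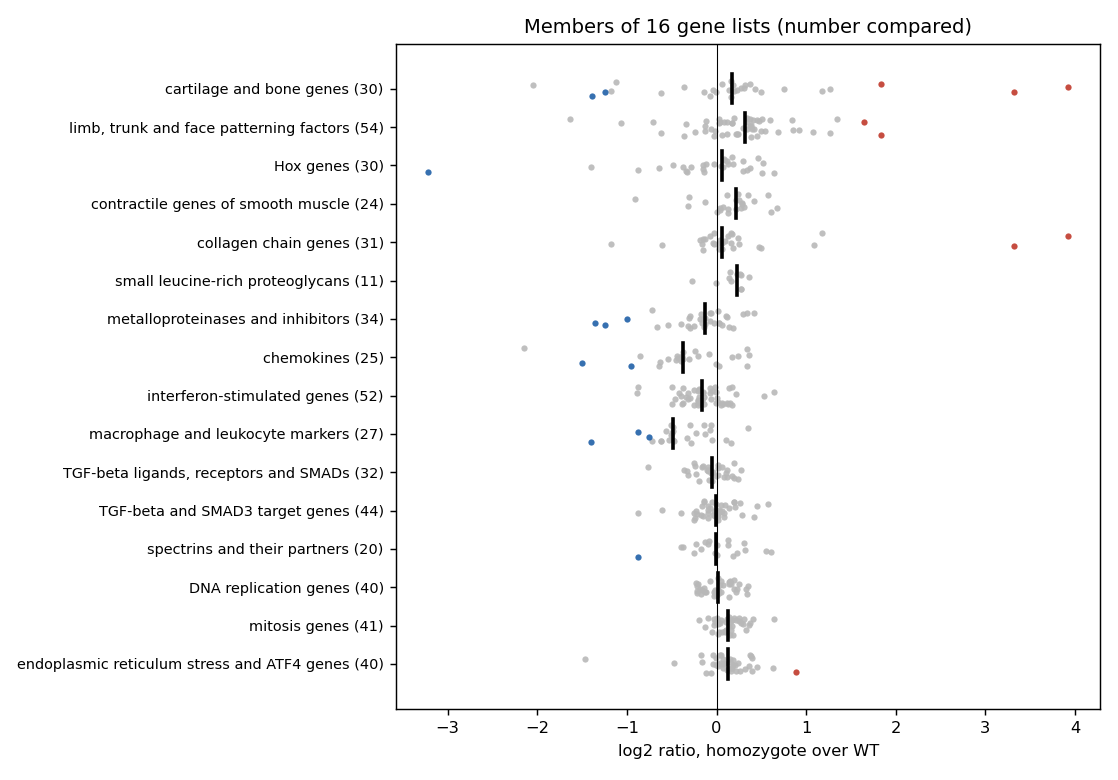
Log2 ratio of the homozygote to WT for the members of 16 gene lists, 1 point per gene, with red points called higher, blue points called lower, grey points not called and a black bar at each median; the number compared is in parentheses. The medians of macrophage markers (-0.48) and chemokines (-0.37) lie to the left, that of the patterning factors (0.31) to the right, and those of the SMAD3 targets and spectrin partners near 0.

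Of 10 abundant non-coding RNAs compared, 5 were higher and 0 lower, beside 0.678% and 0.435% of all genes. Their median log2 ratio was 0.70. Rn7sk, the RNA that restrains the elongation factor P-TEFb, stood at 23.6 CPM in WT, 64.5 in the Sptbn1 heterozygote, 74.4 in the homozygote, 18 in the Smad3 heterozygote, 4153 in the Smad3 homozygote and 0.605 in the doubly heterozygous cells, 3.15-fold higher (2.71 to 3.67). Rpph1, the RNA of ribonuclease P, was 2.11-fold higher (1.66 to 2.68), Rmrp, its relative in ribonuclease MRP, 1.93-fold (1.53 to 2.44), Rprl3 4.50-fold (1.67 to 14.1), and Gas5, a host of small nucleolar RNAs, 1.72-fold (1.62 to 1.83). The ribosomal RNA Rn18s stood at 64661 and 87249 CPM and the nuclear RNA Malat1 at 38532 and 36111 CPM, neither of them called. Small RNAs such as Rn7sk have many near-identical copies in the genome, so their counts depend on how reads with several sites were treated.

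Several calls rested on 0 or a few counts in 1 of the 2 libraries, and 5 higher and 5 lower genes had 0. Slc13a3, a carrier of dicarboxylates such as succinate, had 55 counts in WT and 0 in the homozygote, 10.9-fold lower with 0 taken as 3 counts per library and at least 8.53-fold lower by the exact interval. Its levels were 4.87, 5.74, 0, 0.0969, 0 and 12.6 CPM over the 6 libraries in the order used above, so it was near or at 0 in 3 of them. Pax8, a paired-box factor of thyroid and kidney, had 15 and 0 counts, at least 2.12-fold lower by that interval, and Arhgef15, an exchange factor gene, 17 and 0 counts, at least 2.44-fold lower. The transcript LOC100504551, of no stated function, had 85 and 0 counts, at least 13.3-fold lower, and was also at 0 in the Smad3 heterozygote and homozygote. LOC100503439 had 28 and 1 counts (16.6-fold lower, 2.74 to 678), and LOC100503795 had 0 and 9, at least 3.33-fold higher. Cux2, a homeobox gene, and Gldc, the glycine-cleaving enzyme, each had 0 counts in WT and 8 in the homozygote, at least 2.88-fold higher. S100a9, a calcium-binding protein of neutrophils, had 1 and 17 counts (28.7-fold higher, 4.50 to 1200.1), Otor, a secreted protein gene of the inner ear and cartilage, 1 and 13 (22-fold, 3.30 to 933), and Abca8a, a lipid transporter, 2 and 13 (11-fold, 2.49 to 100). Genes with near-identical copies are uncertain because their reads can be split between copies. The guanylate-binding protein gene listed as Gbp1 (Gbp2b in RefSeq) had 3 and 108 counts, 60.8-fold higher (20.3 to 299). It stood at 0.265 CPM in WT, 13.4 in the Sptbn1 heterozygote, 16.1 in the homozygote and 10.3 in the Smad3 heterozygote. WT was thus the library that stood apart among those of like make-up, and the other two libraries had 0 counts. Mpa2l of the same family had 149 and 22 counts, 4.01-fold lower (2.55 to 6.59). The ribosomal protein genes Rpl39 (13.8-fold lower) and Rpl9 (16.9-fold higher), the survival gene Bcl2a1b (2.26-fold lower) and Ifi27l2a (2.0-fold higher) belong to the same uncertain class.

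The called genes were chosen because the homozygote and WT differed, so both tend to lie at the ends of the 6 libraries, and their positions are given as a description only. Of the 95 higher genes, the homozygote was above the 3 other libraries of like make-up in 76 and WT below them in 52, with both in 38. Of the 61 lower genes, the homozygote was below those 3 in 40 and WT above them in 38, with both in 23. Against all 5 other libraries, the counts were 64 for the homozygote and 20 for WT among the higher genes, and 21 and 23 among the lower ones. Against the Sptbn1 and Smad3 heterozygotes, the homozygote lay beyond 1.5-fold of both, by the whole interval, in 9 of the higher genes. These included Col2a1, Fst, Dsg2 and Aqp4, and also Lancl3, a gene of the lanthionine synthetase family that was 3.62-fold higher than in WT (2.61 to 5.09). WT lay below both heterozygotes in this way in 4 of the higher genes, Gbp1, Otor, Acp1, encoding a tyrosine phosphatase, and Trhde, which degrades thyrotropin-releasing hormone. Among the lower genes the homozygote stood below both heterozygotes in 6, including Nt5e and the antiproliferative gene Btg3, and WT stood above both in 10. Those 10 included Hoxd13, Mmp3, Mmp13, Penk, Pax8, Tfpi2, Cdo1 and Scn7a. Of the 2, the Smad3 heterozygote is labelled with no Sptbn1 mutation. It also differed from WT and both Sptbn1 libraries in sex-linked transcripts and in some marker sums. A position apart from both heterozygotes is therefore not a comparison with matched libraries.

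**Figure D5:**
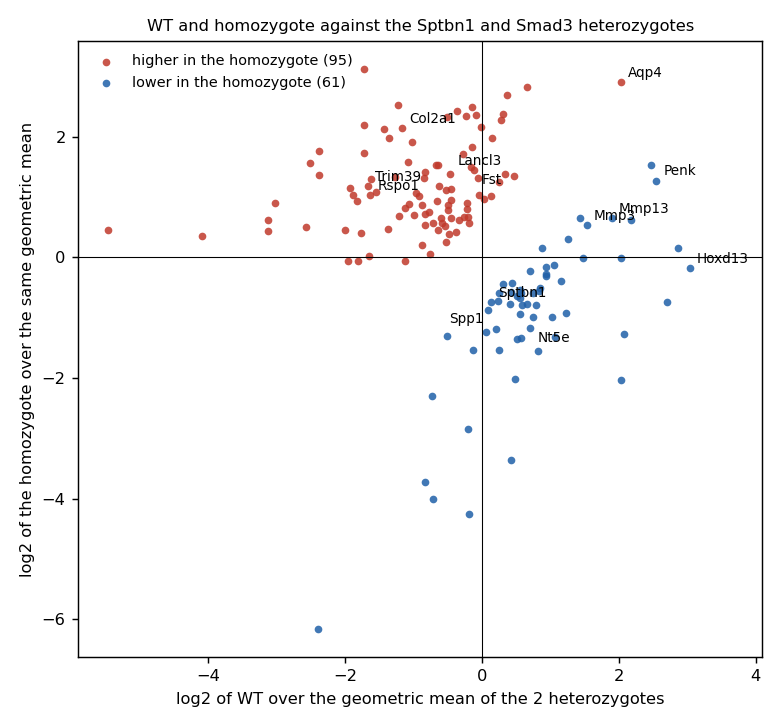
Log2 level of WT (horizontal axis) and of the homozygote (vertical axis), each relative to the geometric mean of the Sptbn1 and Smad3 heterozygotes, for the 156 called genes, with counts of 0 placed at 3 counts. Col2a1, Fst and Lancl3 lie above 0 on the vertical axis, Nt5e and Spp1 below it, and Hoxd13, Penk, Mmp3 and Mmp13 far to the right, where WT is high.

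Called genes were spread over the chromosomes, with RefSeq positions for 13308 of the 14017 genes. The share called ran from 0.318% on chromosome 17 to 2.51% on chromosome 9, leaving aside the Y chromosome, where 0 of 4 genes were called. On chromosome 9, 8 genes were higher and 11 lower of 757 compared, among them Mmp3, Mmp10, Mmp13, Nt5e, Gsta4 and Rn7sk. On chromosome 11, which carries Sptbn1, 7 genes were higher and 3 lower of 1076 compared, or 0.929%. Of 13287 pairs of next neighbours, both genes were called in 8. In 5 of these both genes had the same direction: Mmp3 and Mmp10, Lancl3 and Xk on the X chromosome, Shisa2 and the lipid flippase gene Atp8a2 on chromosome 14, Rn7sk and C920006O11Rik on chromosome 9, and 5730507C01Rik and 1700030C10Rik on chromosome 12. Where neighbours overlap, reads cannot be assigned to one of them without a strand setting, and none is named in the sources used here.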

How the data were processed

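Total RNA was taken with TRIZOL, and 1 ug went into an Illumina TruSeq RNA kit, per the labels' protocols. Every library had its own table, in which the authors deposited unscaled read counts as whole numbers beside gene symbols. Tools in the submitters' processing notes were TopHat2 2.0.10, HTSeq, Trimmomatic, FastQC and DESeq2, with mm9 as the build and without stated roles. Strand setting, counting mode and annotation are not given in the sources used here.

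The 5 closing summary lines of each table were left out. They held, in WT and the homozygote, 32.6% and 30.9% of records on no gene and 42.9% and 47.1% placed at several sites. Library sizes were scaled by TMM over all 6 libraries in edgeR 4.0.16 under R 4.3.3; a level in CPM is the count divided by that scaled size (counts-per-million). Ratios were given exact Clopper-Pearson 95% intervals (scipy 1.17.1), and a gene was called when the whole interval lay beyond 1.5-fold. Widened intervals add the common dispersion among the 4 libraries of like make-up, 0.0350, a biological coefficient of variation of 0.187. Genotype differences are part of that spread. So are the differences of the Smad3 heterozygote in sex-linked transcripts and marker sums. A fold against a count of 0 is bounded by the exact interval, and for 1 gene and in the plots 3 counts per library stand in place of 0. Genes were described through 46 lists, in which 1572 of 1583 entries were found in the tables. Chromosomes and gene order came from RefSeq by symbol, in another build than the authors' files, so no gene coordinates are given. Alternatives were other scalings, filters, thresholds and intervals.

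The members, gene lists and named genes were chosen with earlier results of these data known. Named in full were Sptbn1, Smad3, called list members and the 15 higher and 15 lower genes with the largest nearer bound, without predicted models, ribosomal protein genes and small RNAs. Other called genes were named with their fold, and most others are members of lists without a call; genes named outside this rule, such as Acyp2, C3 and Eln, were chosen after their values were seen.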

Additional observations from a re-analysis of the deposited data

How the results depend on the processing

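Sptbn1 stayed between 53.5% and 54.6% of WT under every scaling tried. The 95 higher and 61 lower genes became 90 to 97 and 61 to 64 under DESeq2 size factors, total counts, TMM over the 2 libraries, TMM over the 4 libraries of like make-up and total counts without abundant non-coding RNAs and histone genes, and 102 and 61 with no filter on low counts. At 5 CPM or more there were 46 and 43. A 2-fold threshold left 30 and 17, and widened intervals 38 and 12, with the 5 higher and 5 lower genes at 0 counts given no such interval. With intervals only required to exclude 1-fold there were 1474 and 1509. Without gene models, LOC entries, ribosomal protein genes and small RNAs there were 65 and 49, a choice made after the data were seen, as was TMM over 4 libraries. Over these scalings, 735 recomputed log2 ratios of called genes and Smad3 stayed inside the counting interval of the reported value. The 321 recomputed list medians, the low-level filters included, moved by less than the usual counting error of a member. That limit is wide for a median and easily met, so it is a weak check. Counts of called list members moved by over 1.5 times in 63 recomputed values (higher) and 67 (lower) and stayed in 443 and 439; 42 and 42 of those that moved came from intervals only required to exclude 1-fold, 7 and 10 from the 2-fold threshold and 7 and 11 from widened intervals. Under the other scalings, the lower matrix proteins went from 1 to 2 (DESeq2 size factors, total counts and TMM over 4 libraries) and the higher interleukin and inflammatory genes from 0 to 1 (total counts without abundant non-coding RNAs and histone genes). No paired analysis was possible because the labels give no replicate numbers and each genotype has 1 library, and for the same reason no library could be left out. The homozygote's depth limits genes under about 5 CPM, where intervals often span several fold. Differences between embryos, cultures and genotypes cannot be told apart.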

Other observations

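The neural crest, glial and neuronal list held 0 higher genes of 17 and had a median log2 ratio of -0.18. Outside the lists, 6 higher genes with a known role in neurons were chosen here after their values were seen, and they stand for no group. Neurog2, a proneural transcription factor, stood at 0.442 CPM in WT, 4.42 in the Sptbn1 heterozygote, 4.48 in the homozygote and 0.291 in the Smad3 heterozygote, with 0 counts in the other two. It was 10.1-fold higher in the homozygote (3.89 to 33.5) from 5 and 30 counts. Prdm8, a transcriptional repressor active in neural development, was 6.76-fold higher (2.18 to 27.8) from 4 and 16 counts. Pou3f4, a POU-domain factor, was 6.08-fold higher (2.18 to 21.0) from 5 and 18. Nrxn2, a synaptic adhesion gene, was 5.49-fold higher (1.70 to 23.1), Celsr3, a cadherin of axon tracts, 2.61-fold (1.67 to 4.11) and the cation channel gene Trpm3 4.22-fold (2.0 to 9.85). Each of the 6 genes was under 10 CPM in both libraries. The general neuronal markers Tubb3 and Stmn2 stood at 20.9 and 22 CPM and at 11.8 and 13.3 CPM in WT and the homozygote and were not called, while Snap25 had 10 and 2 counts and Elavl3 6 and 0, both under the minimum level for comparison.

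Gpr39, a zinc-sensing receptor gene, was 5.99-fold higher (3.01 to 13.0), at 0.973 CPM in WT, 0.294 in the Sptbn1 heterozygote, 5.83 in the homozygote and 4.46 in the Smad3 heterozygote. Here the Sptbn1 heterozygote lay below WT while the homozygote was the highest of the 6 libraries. Lancl3 and Xk, next neighbours on the X chromosome, stood at 4.87, 7.07 and 17.6 CPM and at 4.07, 3.39 and 10.6 CPM in WT, the Sptbn1 heterozygote and the homozygote. Kbtbd11, a gene of the BTB-kelch family, was 3.56-fold higher (2.23 to 5.80) at 2.48 and 8.82 CPM. On the lower side, Samd10 was 5.21-fold lower (2.07 to 16.8) at 3.89 and 0.747 CPM, and the zinc-finger gene Zfp33b had 33 and 2 counts (9.77-fold lower, 2.50 to 84.0).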
